A study of Mus musculus with 12 samples.

Results

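The 10 genes described here encode the NF-κB transcription factor subunits and the IκB proteins that bind them. They are the 5 subunit genes Nfkb1, Nfkb2, Rel, Rela and Relb, the 3 genes of the cytoplasmic inhibitors IκBα, IκBβ and IκBε (Nfkbia, Nfkbib and Nfkbie), and Bcl3 and Nfkbiz, which encode the nuclear IκB proteins BCL3 and IκBζ. They were taken by name, with no threshold on a measured value, and are 10 of the 49585 genes in the count table, and all 10 were among the 16318 genes with enough reads to be tested.

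NF-κB subunits work as dimers, which the cytoplasmic IκB proteins hold out of the nucleus until IκB kinase (IKK) marks these inhibitors for degradation. The products of Nfkb1 and Nfkb2 are processed to p50 and p52, which bind DNA but lack a domain that activates transcription, and BCL3 and IκBζ join p50 or p52 dimers on DNA, where they can raise or lower transcription. Several genes of the family, Nfkbia among them, are themselves targets of NF-κB, so their RNA is part of the feedback within the pathway. In bone the pathway is known for its need in osteoclast formation and for effects on osteoblast differentiation that differ with the setting.

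RNA was sequenced from calvarial osteoblasts, the bone-forming cells of the skull vault, of C57BL/6J mouse pups on postnatal days 3 to 5. The 4 groups of 3 libraries were Bcl3-/- (both alleles of Bcl3 disrupted) after 3 days, wild-type (WT) littermates after 3 days, Bcl3-/- after 1 day and WT after 1 day. All cultures were in medium with 50 µg/ml ascorbic acid and 2 mM β-glycerophosphate, which starts osteogenic differentiation. A culture came from 1 to 3 calvariae by the labels and from 3 by the study's methods, so a library can hold the RNA of several pups. Column names of day 1 and day 3 libraries share suffixes, by which libraries were matched to 6 cultures (3 per genotype). The match rests on these names. Cells digested from calvariae are a mixed population. In RNA of whole cultures, fewer cells of a type and less RNA per cell cannot be told apart.

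The libraries held 20009732 to 41953891 reads in genes. Of the libraries, day 3 Bcl3-/- replicate 3 was the shallowest. The 12 osteoblast markers summed to 80645–86741 CPM (counts scaled to TMM-normalized library size) in day 3 Bcl3-/-, 78304–84978 in day 3 WT, 65385–68606 in day 1 Bcl3-/- and 38298–55374 in day 1 WT libraries. Nearly all of this sum was Col1a1, Col1a2 and Sparc, which fibroblasts also express, at means of 28514, 10869 and 4692 CPM in day 1 WT libraries. Of the more restricted markers, the transcription factor gene Runx2 had 45.6 to 60.3 CPM over all libraries, Sp7 10.2 to 70.6 CPM and Alpl 10.6 to 125.1 CPM. The late markers were low, with 0.136 to 3.92 CPM for Bglap, 0.271 to 7.55 CPM for Bglap2 and 0.678 to 24.1 CPM for Ibsp. The counts of Bcl3 itself were 158 to 959 per library over both days. On day 1 it did not separate the libraries labelled Bcl3-/-, at 17.5 to 19.7 CPM, from those labelled WT, at 17.8 to 21.8 CPM. Reads counted per gene do not show which part of a gene they cover. Genotypes are therefore given as labelled, and every direction by genotype depends on the labels.

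Some of these genes are NF-κB targets themselves, so the promoter stretches that hold a kB match are shown first. RefSeq (GRCm38.p6) promoter windows, from 250 bases before to 50 bases after the transcription start, were matched by symbol for 7 of the 10 genes. Relb, Nfkb1 and Nfkbiz were not matched. The windows were searched on both strands for the kB consensus, the 10-base motif that NF-κB dimers bind. It was in the windows of 5 of the 7 genes, which had 9 windows. Of all 32851 windows of that table, from 27025 genes, 4.51% held it, a share of windows and not of genes. A looser form, GGG, any 5 bases and then CC, which each consensus match also meets, was in 50.8% of all windows. No consensus match was in the windows of Nfkbib and Rela, where the looser form had 0 and 4 matches. The 5 stretches below are 1 for each gene with a match, read along the strand of the gene with the matched bases in capitals. Nfkb2 had 4 such stretches over 3 windows of its alternative starts, and the one with the most overlapping matches, 3, is given. A match describes these letters and is not evidence of binding.
Bcl3, chr7:19822735-19822762, minus strand: cggcggcagGGGAAGTCCCgctgcccgg
Rel, chr11:23771042-23771070, minus strand: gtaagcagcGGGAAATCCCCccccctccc
Nfkb2, chr19:46304689-46304717, plus strand: gatcgtcacGGGAATTCCCCccctcgggg
Nfkbia, chr12:55492658-55492685, minus strand: gactggcttGGAAATTCCCcgcgcctga
Nfkbie, chr17:45555585-45555612, plus strand: cagcaaacaGGGGGATTCCggaggggcg

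The genes lie on 7 chromosomes of GRCm38, and Bcl3, Relb and Nfkbib share chromosome 7. Relb ends 179 kb from Bcl3, and Nfkbib lies 8.94 Mb away. The exons of Bcl3 share 161 bases with Gm16175 on the opposite strand, those of Nfkb2 share 830 bases with Psd and AC114539.1, and those of Nfkbib share 356 bases with Ccer2 and Sirt2. The library kit does not mark strand, so reads in these bases cannot be assigned to either gene.

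Levels were compared between genes in the deposited FPKM (fragments scaled to exon length and library depth), which allows for transcript length. Rela, the subunit p65 with a strong activating domain, had the highest mean FPKM of the 10 in every group. It averaged 34.7 ± 1.82 FPKM in day 3 Bcl3-/-, 35.4 ± 2.61 in day 3 WT, 36.8 ± 1.93 in day 1 Bcl3-/- and 42.5 ± 3.18 in day 1 WT libraries (SD, n = 3 each). Nfkbia came next at 19.9 ± 5.53, 24.6 ± 2.96, 36.4 ± 7.15 and 37.5 ± 4.24 FPKM in the same order of groups, and on day 1 its libraries overlapped those of Rela in both genotypes. Nfkbib followed at group means of 18.1 to 23.2 FPKM, overlapping Nfkbia only in day 3 Bcl3-/- libraries. Nfkb2 and Relb came next, in an order that changed between groups, and their libraries overlapped in all 4 groups.

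The lower part of the order changed with the day on this scale. Nfkbiz averaged 2.13 ± 0.195 FPKM in day 3 Bcl3-/- and 3.46 ± 0.928 in day 3 WT libraries, where it was the lowest of the 10 and overlapped Rel, against 6.46 ± 1.16 in day 1 Bcl3-/- and 5.3 ± 0.454 in day 1 WT libraries, where it overlapped Nfkbie and lay above every Rel value. Rel, the subunit c-Rel that is best known from lymphocytes, averaged 2.13 ± 0.326, 3.63 ± 0.292, 3.33 ± 0.291 and 3.75 ± 0.707 FPKM in the same order of groups. Bcl3 stood below Nfkb1 on day 3, at 5.88 ± 1.08 FPKM in Bcl3-/- and 9.27 ± 1.37 in WT libraries (which overlapped those of Nfkb1), and above Nfkb1 on day 1, at 12.0 ± 0.517 in Bcl3-/- and 12.3 ± 1.59 in WT libraries. Between its lowest and highest library Bcl3 spanned 3.04-fold in FPKM, and Nfkb1 spanned 1.43-fold.

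The order depended on how length was allowed for. Counts scaled to CPM per kilobase of all annotated exons, a comparison added after the FPKM were seen, put Nfkbia above Rela in day 1 Bcl3-/- libraries, at 31.6 ± 6.42 and 30.8 ± 1.86 CPM per kilobase (SD, n = 3 each), with overlapping libraries. In the other groups Rela stayed the highest. Bcl3 lay above Nfkb1 in every group on that scale, at 3.81 ± 0.404 against 2.45 ± 0.135 CPM per kilobase in day 3 Bcl3-/- and 5.86 ± 0.642 against 2.37 ± 0.232 in day 3 WT libraries. Nfkb1 was then the lowest of the 10 in every group but day 3 Bcl3-/-, where Nfkbiz was, and in day 3 WT libraries it overlapped Nfkbiz at 2.48 ± 0.669 CPM per kilobase. In day 1 WT libraries Nfkbiz, at 3.6 ± 0.297, overlapped Rel, at 3.67 ± 0.681 CPM per kilobase.

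**Figure D1:**
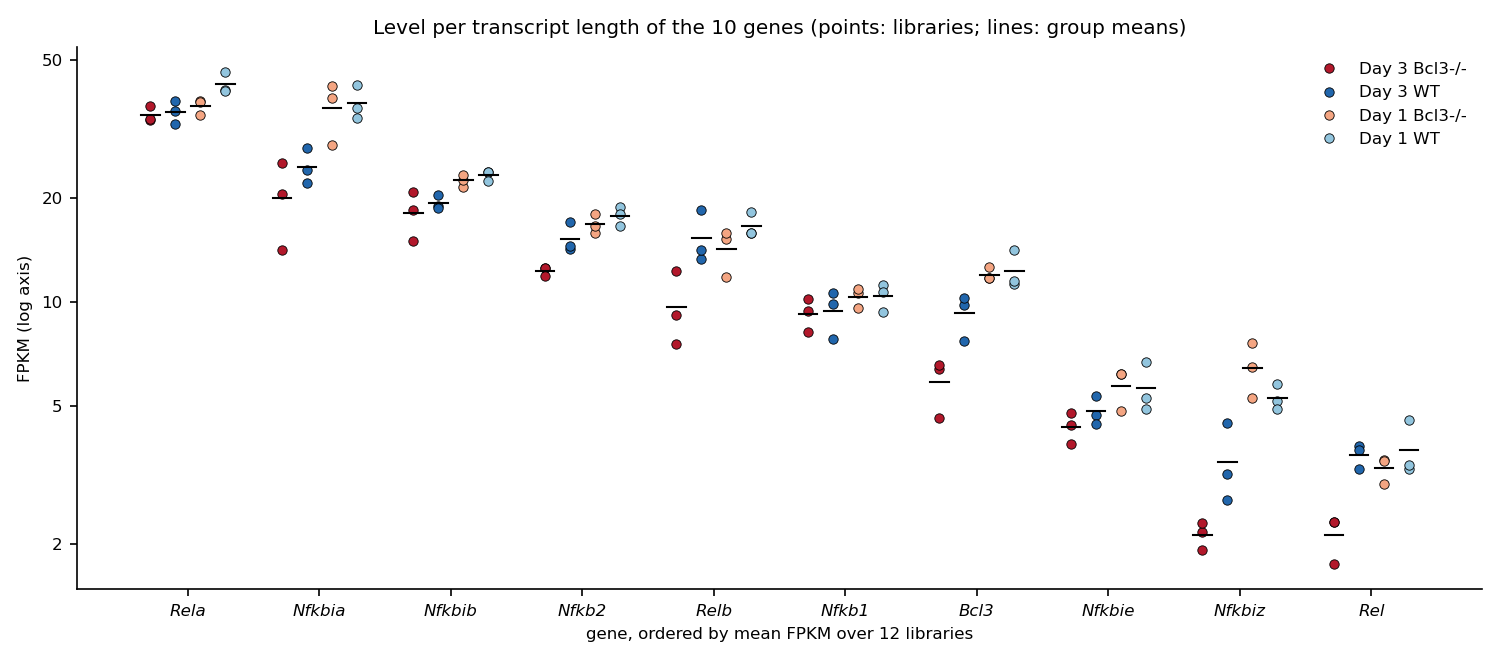
FPKM (vertical log axis) of the 10 genes, ordered from left to right by their mean over 12 libraries; points are libraries, short lines are group means and colors are the 4 groups. Rela is the highest at group means of 34.7 to 42.5 FPKM, and the day 3 Bcl3-/- points of Rel and Nfkbiz, with means of 2.13 FPKM each, are at the bottom.

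Changes were tested on the counts of all 16318 genes with edgeR's quasi-likelihood test, and a gene was called at a Benjamini-Hochberg adjusted p under 0.05. On day 3, Rel, Bcl3 and Nfkbiz were lower in Bcl3-/- than in WT libraries and no member was higher. In that comparison 10.4% of all tested genes were called, 4.78% higher and 5.6% lower. On day 1 none of the 10 was called, beside 15.3% of all genes, 9.03% higher and 6.26% lower. At an unadjusted p under 0.05 the day 1 comparison had 1 member, Rela, beside 4688 of all 16318 genes. DESeq2 called no member on day 1, beside 3027 of all genes.

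From day 1 to day 3, 5 members fell in Bcl3-/- libraries (Bcl3, Nfkbiz, Nfkb2, Nfkbia and Rel) and none rose, beside 33.4% of all genes called, 16.2% higher and 17.2% lower. In WT libraries 3 members fell (Bcl3, Nfkbiz and Nfkbia) and none rose, beside 38.5% of all genes, 20.6% higher and 17.9% lower. The WT count was 0 when replicate 2 of day 1 WT or replicate 3 of day 3 WT was left out, 1 when replicate 1 of day 1 WT or replicate 2 of day 3 WT was, and 5 when replicate 1 of day 3 WT was. In the same order, 4984, 4629, 5139, 5452 and 6205 of all genes were called over time in WT, against 6285 in the main test. The median log2 fold change of the 10 members was -0.27 on day 3 between genotypes, -0.03 on day 1, -0.42 over time in Bcl3-/- and -0.16 over time in WT libraries, and the median of all tested genes was within 0.01 of 0 in each. The comparisons share libraries: the day 3 Bcl3-/- libraries serve both the genotype comparison on day 3 and the change over time in Bcl3-/-.

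The test of the difference itself, the change over time in Bcl3-/- minus that in WT libraries, called none of the 10 members, beside 1.12% of all genes, 0.172% higher and 0.95% lower. At an unadjusted p under 0.05 it had Nfkbiz, Bcl3 and Rel, each negative, beside 1961 of all 16318 genes in either direction. With DESeq2, with no filter on low counts, or with the culture as a replicate block, it called 1 member, Nfkbiz. In the same order these settings called 462 of 16318, 552 of 30749 and 292 of 16318 genes, against 183 in the main test. A call in one genotype and not in the other, as for Rel and Nfkb2, is therefore no shown difference between the genotypes.

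**Figure D2:**
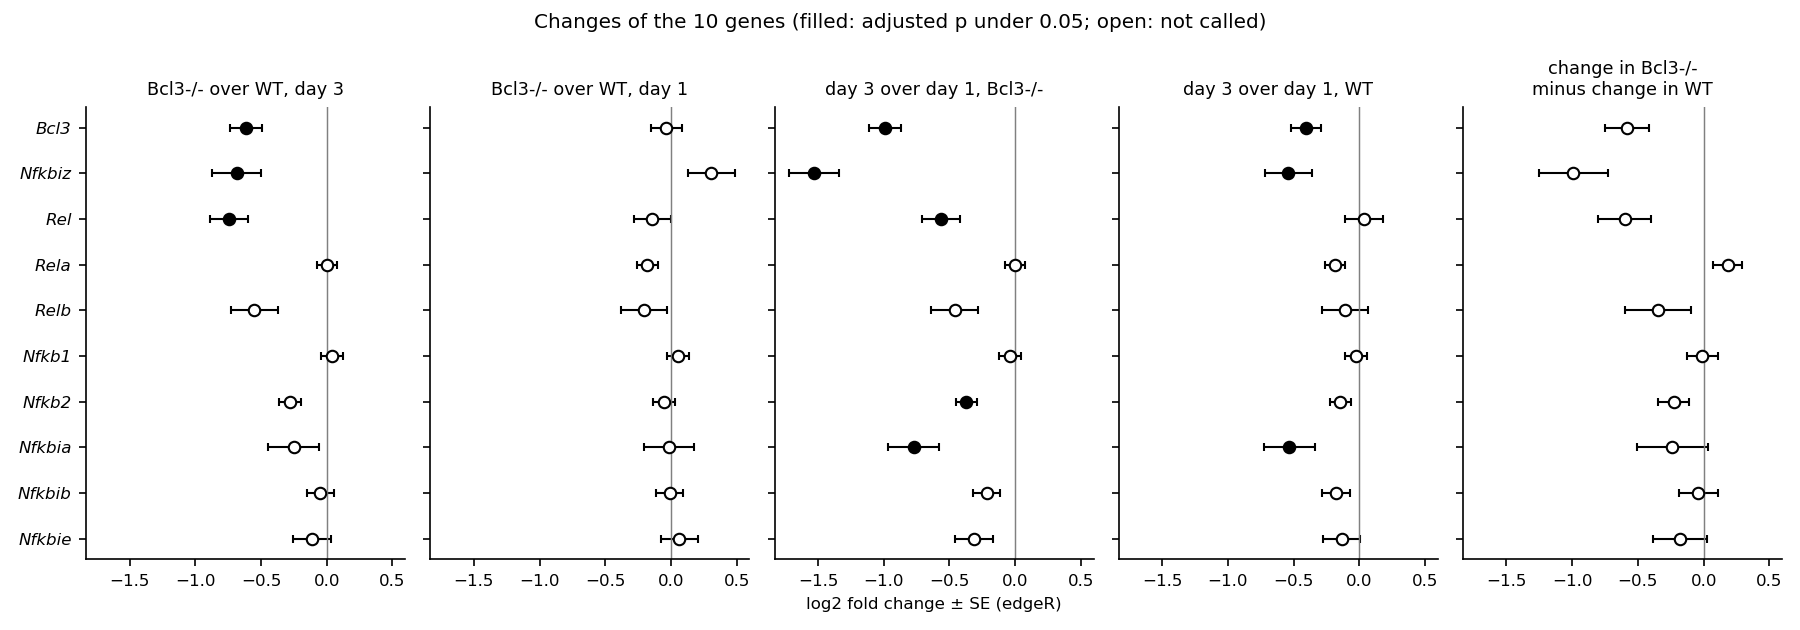
Log2 fold change with its standard error (horizontal axis) of the 10 genes in 4 comparisons and in the difference between the changes over time, from edgeR; filled points passed an adjusted p under 0.05. The largest change is that of Nfkbiz from day 1 to day 3 in Bcl3-/- libraries, at -1.53, and no point of the day 1 genotype comparison is filled.

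Bcl3 had 10.2, 9.72 and 8.31 CPM in day 3 Bcl3-/- libraries, against 14.8, 15.9 and 12.8 CPM in day 3 WT libraries. On day 1 it had 17.5, 19.7 and 19.2 CPM in Bcl3-/- libraries, against 18.0, 21.8 and 17.8 CPM in WT libraries. The day 3 groups were apart and the day 1 groups overlapped. The log2 fold change by genotype was -0.62 (SE 0.12, adjusted p by edgeR = 0.00863) on day 3 and -0.035 (SE 0.12, adjusted p by edgeR = 0.887) on day 1. Tested on log2(FPKM + 1) in place of counts, the day 3 value was -0.58 with a limma adjusted p of 0.0603, and with a pseudocount of 0.1 it was -0.653 (limma adjusted p = 0.057). With genes of low FPKM left out the call held, at a limma adjusted p of 0.0254.

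Over time Bcl3 fell by 0.99 on the log2 scale in Bcl3-/- libraries (SE 0.12, adjusted p by edgeR = 0.000107), to 0.504 of its day 1 level. In WT libraries it fell by 0.41 (SE 0.12, adjusted p by edgeR = 0.0159), to 0.754 of its day 1 level. The WT call ended without day 1 WT replicate 2 (adjusted p by edgeR = 0.0735), without day 3 WT replicate 3 (adjusted p by edgeR = 0.0781) and on FPKM. The difference between the 2 changes was -0.58 (SE 0.17, adjusted p by edgeR = 0.15).

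Nfkbiz encodes IκBζ, a coactivator that is itself induced by interleukin-1 and Toll-like receptor signaling. It had 7.8, 7.06 and 8.31 CPM in day 3 Bcl3-/- libraries, against 16.1, 11.7 and 9.48 CPM in day 3 WT libraries, and the groups did not overlap. On day 1 it had 18.0, 22.3 and 26.6 CPM in Bcl3-/- libraries, against 19.7, 17.6 and 16.9 CPM in WT libraries, which overlapped. The log2 fold change by genotype was -0.685 (SE 0.19, adjusted p by edgeR = 0.038) on day 3 and 0.31 (SE 0.18, adjusted p by edgeR = 0.289) on day 1. The day 3 call is the least stable of the 3: it was kept in 5 of 11 other settings and 5 of 12 fits with a library left out. With a replicate block by culture, which for genotypes was fitted with limma in place of edgeR, its limma adjusted p was 0.0786. It ended without any 1 of day 3 WT replicate 1 (adjusted p by edgeR = 0.16), day 3 WT replicate 2 (0.0671), day 3 Bcl3-/- replicates 1, 2 and 3 (0.0712, 0.135 and 0.0572), day 1 WT replicate 2 (0.0553) and day 1 Bcl3-/- replicate 2 (0.0581).

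Over time Nfkbiz changed most among the 10 genes in Bcl3-/- libraries, where it fell by 1.53 on the log2 scale (SE 0.19, adjusted p by edgeR = 0.00011), to 0.346 of its day 1 level. In WT libraries it fell by 0.54 (SE 0.18, adjusted p by edgeR = 0.033), a call that ended without day 1 WT replicate 1 (adjusted p by edgeR = 0.0794), day 1 WT replicate 2 (0.0537), day 3 WT replicate 2 (0.0924) or day 3 WT replicate 3 (0.138). The difference between the changes was -0.99 (SE 0.26, adjusted p by edgeR = 0.107), with an adjusted p of 0.0476 under the replicate block by culture and 0.0183 with DESeq2. Every day 3 library had less Nfkbiz than any day 1 library of its genotype.

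**Figure D3:**
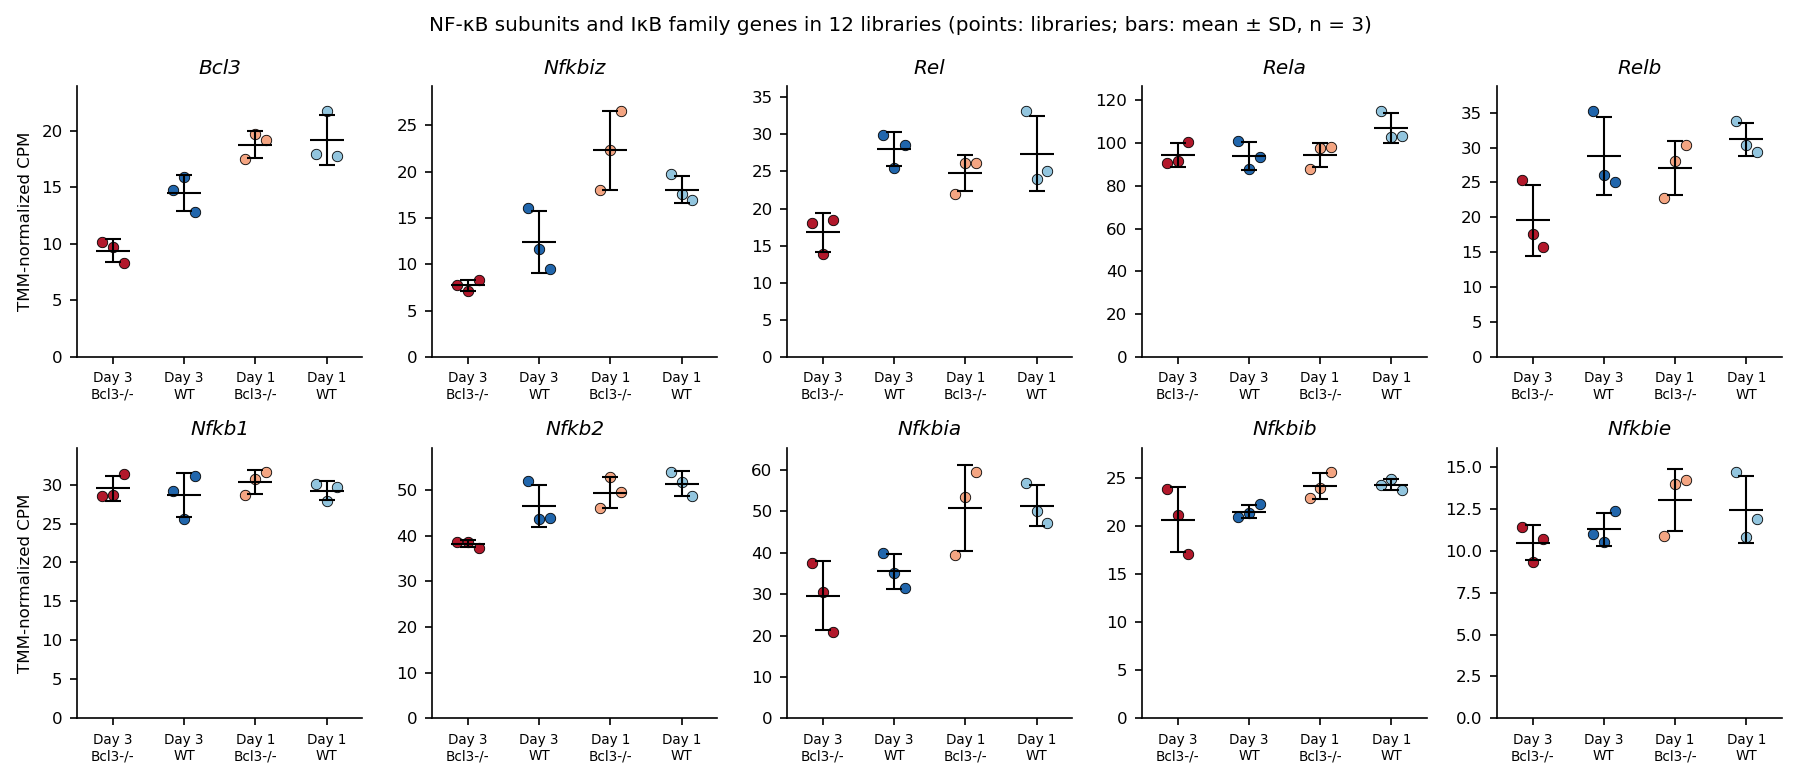
TMM-normalized CPM (vertical axis, from 0) of each of the 10 genes in the 12 libraries, by group; points are libraries and bars are the mean ± SD (n = 3). Bcl3, Nfkbiz, Rel and Nfkb2 are lower in every day 3 Bcl3-/- library than in any day 3 WT library, and Nfkb1 lies between 25.6 and 31.6 CPM in all 12.

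Among the subunits, Rel was lower in Bcl3-/- than in WT libraries on day 3. It had 18.0, 13.8 and 18.5 CPM in day 3 Bcl3-/- libraries, against 29.9, 25.5 and 28.6 CPM in day 3 WT libraries, with no overlap. On day 1 it had 22.0, 26.1 and 26.2 CPM in Bcl3-/- libraries, against 33.2, 24.0 and 25 CPM in WT libraries, with overlap. The log2 fold change by genotype was -0.743 (SE 0.145, adjusted p by edgeR = 0.00844) on day 3 and -0.14 (SE 0.14, adjusted p by edgeR = 0.574) on day 1. The day 3 call held in all 11 other settings and without each of the 12 libraries.

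Over time Rel fell in Bcl3-/- libraries by 0.567 on the log2 scale (SE 0.145, adjusted p by edgeR = 0.0104), a call that also held in every setting. In WT libraries its log2 fold change was 0.035 (SE 0.14, adjusted p by edgeR = 0.876). The difference between these changes was -0.60 (SE 0.20, adjusted p by edgeR = 0.227).

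Relb encodes the subunit that pairs with p52 in the non-canonical branch of the pathway. It had 25.3, 17.6 and 15.8 CPM in day 3 Bcl3-/- libraries, against 35.3, 26.1 and 25.1 CPM in day 3 WT libraries, and replicate 1 of Bcl3-/- overlapped the WT range. The log2 fold change of -0.55 (SE 0.18, adjusted p by edgeR = 0.07) missed the threshold, and so did the change over time in Bcl3-/- libraries of -0.46 (SE 0.18, adjusted p by edgeR = 0.065). Without day 3 Bcl3-/- replicate 1 the adjusted p was 0.0121 between genotypes on day 3 and 0.00852 over time in Bcl3-/-. With DESeq2 both were called, at adjusted p of 0.0273 and 0.0408.

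Nfkb2, the source of p52, was the other subunit gene to change over time in Bcl3-/- libraries. It had 38.7, 38.7 and 37.3 CPM in day 3 Bcl3-/- libraries, against 51.9, 43.7 and 43.9 CPM in day 3 WT libraries and 46.0, 52.8 and 49.5 CPM in day 1 Bcl3-/- libraries. The day 3 Bcl3-/- values were close to each other and below both other groups. From day 1 to day 3 it fell by 0.37 on the log2 scale (SE 0.08, adjusted p by edgeR = 0.00507) in Bcl3-/- libraries, which held in every setting. Between genotypes on day 3 its log2 fold change was -0.28 (SE 0.08, adjusted p by edgeR = 0.0505), just short of the threshold, and DESeq2 called it (adjusted p = 0.0314).

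Rela and Nfkb1, which form the p65 and p50 dimer of the canonical branch, were called in no comparison. Rela had 90.5, 91.8 and 100.7 CPM in day 3 Bcl3-/- libraries, against 100.8, 87.7 and 93.7 CPM in day 3 WT libraries. On day 1 it had 87.9, 97.5 and 98.1 CPM in Bcl3-/- libraries, against 115.2, 102.8 and 103.3 CPM in WT libraries, and these did not overlap. The day 1 log2 fold change by genotype was -0.18 (SE 0.08, adjusted p by edgeR = 0.148), and that over time in WT libraries was -0.19 (SE 0.08, adjusted p by edgeR = 0.0787), which was called under the replicate block by culture (adjusted p = 0.0362). Nfkb1 stayed between 25.6 and 31.6 CPM in all 12 libraries, with log2 fold changes of -0.04 to 0.05 in the 4 comparisons, each with an SE of 0.08.

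Of the cytoplasmic inhibitors, Nfkbia (IκBα) was lower on day 3 than on day 1 in both genotypes. It had 37.5, 30.6 and 20.9 CPM in day 3 Bcl3-/- and 39.9, 35.2 and 31.4 CPM in day 3 WT libraries, against 39.4, 53.6 and 59.5 CPM in day 1 Bcl3-/- and 56.9, 50.0 and 47.3 CPM in day 1 WT libraries. The 2 days did not overlap within either genotype, and the genotypes overlapped on both days. It fell by 0.77 on the log2 scale over time in Bcl3-/- libraries (SE 0.19, adjusted p by edgeR = 0.00952), a call kept in every setting, and by 0.53 in WT libraries (SE 0.19, adjusted p by edgeR = 0.0447). The WT call was kept in 5 of 11 other settings and ended with the replicate block by culture (adjusted p = 0.0672). Leaving out day 1 WT replicates 1 or 2, day 3 WT replicates 2 or 3, day 1 Bcl3-/- replicate 2 or day 3 Bcl3-/- replicate 2 also ended it, at edgeR-adjusted p of 0.0507 to 0.153.

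Nfkbib and Nfkbie were called in no comparison. Nfkbib ranged from 17.1 CPM in day 3 Bcl3-/- replicate 3 to 25.6 CPM in day 1 Bcl3-/- replicate 3. Its log2 fold changes over time were -0.22 (SE 0.10, adjusted p by edgeR = 0.127) in Bcl3-/- and -0.18 (SE 0.10, adjusted p by edgeR = 0.199) in WT libraries. Without day 3 Bcl3-/- replicate 1 the change in Bcl3-/- libraries passed, at an adjusted p of 0.0287. Nfkbie ranged from 9.33 to 14.7 CPM, and its largest log2 fold change, -0.31 over time in Bcl3-/- libraries (SE 0.145, adjusted p by edgeR = 0.117), passed only without day 1 Bcl3-/- replicate 1 (adjusted p by edgeR = 0.0493).

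Counting libraries in place of a test, 4 members (Rel, Nfkb2, Nfkbiz and Bcl3) had all 3 day 3 Bcl3-/- libraries below all 3 day 3 WT libraries, a pattern shown by 15.6% of all tested genes. On day 1 only Rela did, beside 18.9% of genes. Over time 5 members (Rel, Nfkbia, Nfkb2, Nfkbiz and Bcl3) had all day 3 libraries below all day 1 libraries in Bcl3-/-, beside 23.9% of genes, and 5 (Nfkbia, Rela, Nfkbib, Nfkbiz and Bcl3) in WT, beside 23.7%. No member showed the opposite pattern in any of the 4 comparisons. Of all tested genes, 13.1% showed it between genotypes on day 3 and 19.4% on day 1. Over time 23.3% did in Bcl3-/- and 25.1% in WT.

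Added over the 10 genes, the FPKM of the family averaged 118.4 ± 10.1 in day 3 Bcl3-/- and 140.5 ± 11.5 in day 3 WT libraries, against 164.5 ± 15.7 in day 1 Bcl3-/- and 175.0 ± 12.1 in day 1 WT libraries (SD, n = 3 each). The day 3 libraries lay below the day 1 libraries of the same genotype, and day 3 Bcl3-/- below day 3 WT (two-sided exact permutation p = 0.1 each), and day 1 genotypes overlapped (p = 0.6). The 3 cytoplasmic inhibitors against the 5 subunits gave ratios of 0.726, 0.654 and 0.487 in day 3 Bcl3-/- and 0.586, 0.661 and 0.614 in day 3 WT libraries, against 0.731, 0.789 and 0.846 in day 1 Bcl3-/- and 0.734, 0.744 and 0.709 in day 1 WT libraries. The ratio was thus lower on day 3 in every library of each genotype, by 0.166 in Bcl3-/- and 0.109 in WT (two-sided exact permutation p = 0.1 each), and 0.1 is the smallest p that 3 against 3 libraries can give. For the family total and the ratio, the permutations between days treated libraries as unpaired, although their names match each day 1 library to a day 3 library. Between genotypes the ratio overlapped on both days (two-sided exact permutation p = 1.0 on day 3 and 0.3 on day 1).

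Within the family total, Bcl3 made up 4.95 ± 0.705% in day 3 Bcl3-/- and 6.62 ± 1.08% in day 3 WT libraries, against 7.33 ± 0.683% in day 1 Bcl3-/- and 7.06 ± 1.14% in day 1 WT libraries (SD, n = 3 each). Rela made up 29.5 ± 3.92%, 25.2 ± 0.829%, 22.4 ± 1.07% and 24.3 ± 0.377% in the same order of groups. Its share in Bcl3-/- libraries did not overlap between the days, although its own FPKM did. Nfkbiz made up 1.81 ± 0.257% in day 3 Bcl3-/- libraries and 3.91 ± 0.385% in day 1 Bcl3-/- libraries. In WT libraries it made up 2.44 ± 0.473% on day 3 and 3.03 ± 0.0512% on day 1, so its FPKM share was lower on day 3 in both genotypes. In CPM per kilobase of exon its WT shares overlapped between the days, at 2.5 ± 0.493% on day 3 and 3.02 ± 0.0504% on day 1.

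**Figure D4:**
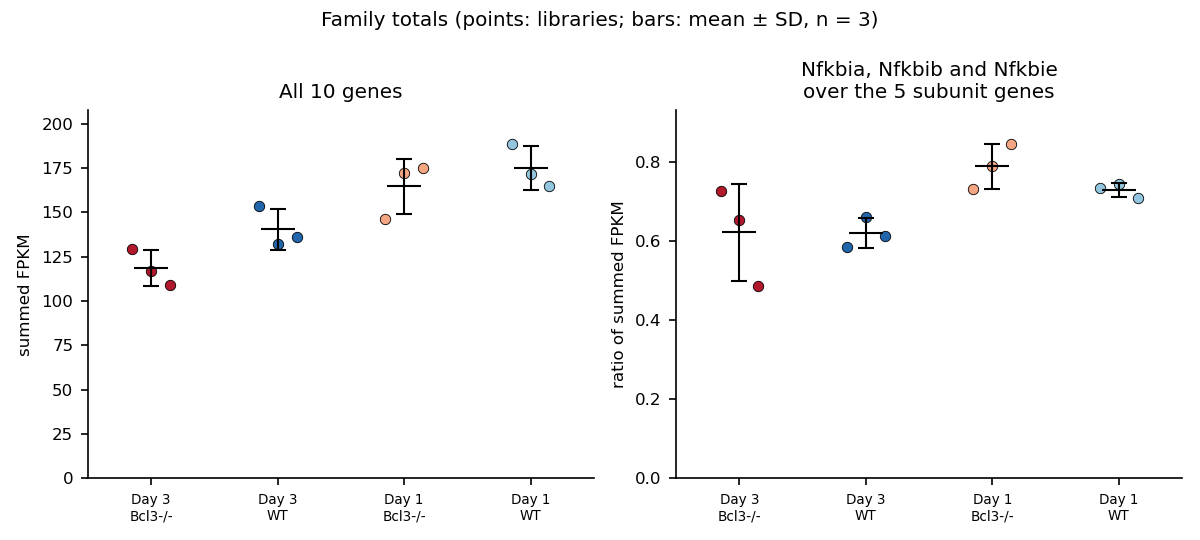
Left, summed FPKM of the 10 genes, and right, the ratio of the summed FPKM of Nfkbia, Nfkbib and Nfkbie to that of the 5 subunit genes, in each library by group (vertical axes from 0); bars are the mean ± SD (n = 3). Both are lower on day 3 than on day 1 within each genotype, and day 3 Bcl3-/- replicate 3 has the lowest ratio at 0.487.

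Markers of other cell types moved with some of these comparisons. Of all tested genes, 10.4% were called between genotypes on day 3 (5.6% lower) and 15.3% on day 1 (6.26% lower). On day 3 the 8 lymphocyte markers summed to 0.68–1.82 CPM in Bcl3-/- against 2.27–2.74 CPM in WT libraries, with 0 of the 6 tested called. The 14 macrophage markers summed to 504–1003 CPM in Bcl3-/- against 825–1230 CPM in WT libraries, with 2 of 14 lower (Csf1r and Cx3cr1) and none higher. The sums of day 3 Bcl3-/- replicates 1, 2 and 3 were 1003.3, 714.6 and 504.4 CPM. These libraries ranked in that order in Bcl3, Nfkbia, Nfkbib and Relb and in the reverse order in Nfkb1 and Rela. Nfkb2 had 38.7 CPM in both replicates 1 and 2, and Rel, Nfkbie and Nfkbiz followed neither order. Replicate 3 was also the shallowest library. The sums of day 3 WT replicates 1, 2 and 3 were 825.3, 877.5 and 1229.5 CPM. Nfkbib ranked in that order, Nfkbia, Relb and Nfkbiz in the reverse, and the other members in neither. With 3 libraries such orders arise easily, and their share over all genes was not counted. On day 3, 4 of 6 smooth muscle markers were lower in Bcl3-/- libraries, and on day 1, where no member was called, 3 of 6 were. The 6 summed to 2112–2379 CPM in Bcl3-/- against 2690–3215 CPM in WT libraries on day 3. On day 1 they summed to 2749–2914 CPM against 3147–3464 CPM. Over time in Bcl3-/- libraries 5 of 6 tested lymphocyte markers were lower, and 9 of 14 macrophage markers were higher and 1, Cx3cr1, lower. In WT libraries 3 of 6 lymphocyte markers were lower and 10 of 14 macrophage markers higher, with none the other way. Of all genes, 17.2% were lower and 16.2% higher over time in Bcl3-/-, and 17.9% and 20.6% in WT. The 7 osteoclast markers summed to 398–423 CPM in Bcl3-/- against 261–358 CPM in WT libraries on day 3, with 0 of the 6 tested called, and to 184–213 CPM against 133–168 CPM on day 1, with Ctsk higher. Over time 3 of them (Ctsk, Acp5 and Atp6v0d2) were higher in both genotypes, and Dcstamp was lower in Bcl3-/- libraries. The 9 chondrocyte markers summed to 375–464 CPM in day 3 Bcl3-/- against 830–1160 CPM in day 1 Bcl3-/- libraries, with Col2a1, Matn3 and Acan lower and Col9a2 higher. In WT libraries they summed to 408–1575 CPM on day 3 and 806–2527 CPM on day 1. Of the markers in these lists, Calcr was at 0 in all day 1 Bcl3-/- libraries and no other was at 0 in a whole group. Their part in the changes of the 10 genes was not tested.

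The rest of the pathway was followed through 7 gene lists. Their counts stand beside the shares of all genes called in either direction. These were 10.4% between genotypes on day 3, 15.3% on day 1, 33.4% over time in Bcl3-/- and 38.5% in WT. The ligands, cytokines that activate NF-κB through their receptors, had 8 of 11 genes tested. Over time in Bcl3-/- libraries Il1b, Tnf, Ltb and Il1a fell and Il18 rose. Interleukin-1β (Il1b) had 0.0324 to 9.27 CPM in day 3 Bcl3-/- libraries against 21.6 to 66.9 CPM in day 1 Bcl3-/- libraries, a log2 fold change of -3.80 (SE 0.89, adjusted p by edgeR = 0.00648). Tnf had 0.158 to 1.04 CPM in day 3 Bcl3-/- libraries against 1.26 to 3.13 CPM in day 1 Bcl3-/- libraries, a log2 fold change of -2.09 (SE 0.51, adjusted p by edgeR = 0.00837). In WT libraries Il18, Il33 and Tnfsf12 rose and Tnfsf11 fell over time. Il18 rose in both genotypes, by 1.20 (SE 0.22, adjusted p by edgeR = 0.00154) in Bcl3-/- and by 1.77 (SE 0.23, adjusted p by edgeR = 0.000109) in WT libraries. Of the 5 ligand calls in Bcl3-/- libraries 4 held without each library, and of the 4 in WT 2 did. Those that did not were Il1a in Bcl3-/- (adjusted p of up to 0.127, ended without 7 libraries) and Tnfsf11 and Tnfsf12 in WT (up to 0.132 and 0.0504, both ended without day 3 WT replicate 3). Between genotypes 3 ligands (Il18, Tnfsf12 and Il33) were higher in Bcl3-/- on day 1 and none was called on day 3. All 3 calls ended without day 1 WT replicate 1 or 2, at adjusted p of up to 0.0526 for Il18, 0.087 for Il33 and 0.0843 for Tnfsf12. Those of Il33 and Tnfsf12 also ended without day 1 Bcl3-/- replicate 3, and that of Tnfsf12 without replicate 2.

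Among 12 receptors, Tnfrsf1b, the second receptor of TNF, and Tnfrsf11a, the receptor RANK that osteoclast precursors need, were lower in Bcl3-/- than in WT libraries on day 3. Tnfrsf1b had 21.5 to 25.7 CPM in day 3 Bcl3-/- against 34.7 to 47.6 CPM in day 3 WT libraries, a log2 fold change of -0.71 (SE 0.12, adjusted p by edgeR = 0.00503). Tnfrsf11a was also lower on day 1, with log2 fold changes of -0.87 (SE 0.17, adjusted p by edgeR = 0.00766) on day 3 and -0.82 (SE 0.16, adjusted p by edgeR = 0.00648) on day 1. Both calls of Tnfrsf11a ended on log2(FPKM + 1) and log2(FPKM + 0.1), at adjusted p of up to 0.0773 on day 3 and 0.117 on day 1. On day 1 the Toll-like receptors Tlr3 and Tlr2 were higher in Bcl3-/- libraries, by 1.01 (SE 0.19, adjusted p by edgeR = 0.00444) and 0.85 (SE 0.18, adjusted p by edgeR = 0.00808) on the log2 scale, with Il1rap and Il1r1, and Tnfrsf12a was lower. The calls of Il1rap and Il1r1 ended without any day 1 library but WT replicate 3, and without day 3 WT replicate 3 for Il1rap or replicate 2 for Il1r1, at adjusted p of up to 0.158 and 0.182. Tlr4, the receptor of lipopolysaccharide, rose over time in both genotypes, by 0.66 (SE 0.11, adjusted p by edgeR = 0.000893) in Bcl3-/- and 0.61 (SE 0.11, adjusted p by edgeR = 0.00104) in WT libraries.

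None of the 11 kinases and kinase partners that act upstream of IκB was called between genotypes on day 3, beside 10.4% of all genes. On day 1 Ikbke, Map3k8 and Tab1 were higher in Bcl3-/- libraries, and none was lower. The call of Tab1 ended without any day 1 library but WT replicate 3 (adjusted p of up to 0.114). Ikbke, an IKK-related kinase, averaged 16.3 ± 0.736 CPM in day 1 Bcl3-/- and 11.6 ± 1.02 CPM in day 1 WT libraries (SD, n = 3 each), a log2 fold change of 0.49 (SE 0.10, adjusted p by edgeR = 0.00812). Over time it rose in both genotypes, by 0.41 (SE 0.10, adjusted p by edgeR = 0.00831) in Bcl3-/- and 0.97 (SE 0.10, adjusted p by edgeR = 2.93e-05) in WT libraries. Of the core kinase genes, Chuk, Ikbkb and Ikbkg, which encode the subunits of IKK, were called in no comparison. Of the 16 TRAF and adaptor genes, Traf3, which holds the non-canonical branch in check, fell over time in both genotypes, by 0.42 (SE 0.09, adjusted p by edgeR = 0.00314) in Bcl3-/- and 0.53 (SE 0.09, adjusted p by edgeR = 0.000445) in WT libraries. In WT libraries 6 adaptor genes rose over time, beside 20.6% of all genes, and in Bcl3-/- libraries none did, beside 16.2%. The test of the difference between the changes called none of the 16. Of the 7 calls over time in WT 4 held without each library. On day 1 Myd88, Irak4 and Rnf31 were higher in Bcl3-/- libraries and none was lower. All 3 calls ended without day 1 WT replicates 1 or 2 or day 1 Bcl3-/- replicates 2 or 3, and those of Irak4 and Rnf31 also without day 1 Bcl3-/- replicate 1, at adjusted p of up to 0.093, 0.112 and 0.14. On day 3 Traf2 was lower in Bcl3-/- libraries, a call that ended without 11 of the 12 libraries, all but day 3 WT replicate 3.

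Negative regulators of the pathway were 11 genes. On day 1 Pdlim2 was higher and Otud7b lower in Bcl3-/- libraries, calls that ended without 7 and 11 of the 12 libraries. Tnfaip3, the ubiquitin-editing enzyme A20 and a target of NF-κB, had 4.89 to 11.8 CPM in day 3 Bcl3-/- libraries, against 13.5 to 16.9 CPM in day 3 WT libraries. The log2 fold change was -1.01 (SE 0.265, adjusted p by edgeR = 0.031), and the call ended without day 1 Bcl3-/- replicate 2 and without any day 3 library but Bcl3-/- replicate 1, at adjusted p of up to 0.115. Over time in Bcl3-/- libraries, where 5 of 7 calls of this list held without each library, Tnfaip3 fell by 1.42 (SE 0.265, adjusted p by edgeR = 0.00167) and Nfkbid, a further nuclear IκB gene, fell by 2.11 (SE 0.395, adjusted p by edgeR = 0.00174), with Cyld and Otud7b also lower. Tnip1, Pdlim2 and Tax1bp1 rose over time in both genotypes. Tnip1, a partner of A20, rose by 0.65 in each (SE 0.08, adjusted p by edgeR = 0.000146 in Bcl3-/- and 0.000106 in WT libraries).

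Of the 21 NF-κB target genes 17 were tested. Ptgs2, the gene of cyclooxygenase-2, was lower in Bcl3-/- libraries on both days. It had 13.5 to 16.7 CPM in day 3 Bcl3-/- against 33.5 to 85.4 CPM in day 3 WT libraries and 90.4 to 122.5 CPM in day 1 Bcl3-/- against 223.0 to 557.0 CPM in day 1 WT libraries. The log2 fold changes were -1.82 (SE 0.36, adjusted p by edgeR = 0.00878) on day 3 and -1.87 (SE 0.34, adjusted p by edgeR = 0.00426) on day 1. The day 3 call ended on log2(FPKM + 1) (limma adjusted p = 0.0577). Over time the neutrophil chemokines Cxcl1 and Cxcl5 and Ptgs2 fell in both genotypes. The log2 fold change of Cxcl1 was -2.41 (SE 0.19, adjusted p by edgeR = 5.21e-06) in Bcl3-/- and -2.00 (SE 0.19, adjusted p by edgeR = 1.61e-05) in WT libraries. In Bcl3-/- libraries Il6 and Cxcl2 fell too and Mmp9 rose, the last a call that ended without any day 1 Bcl3-/- library or day 3 Bcl3-/- replicate 2 (adjusted p of up to 0.143). In WT libraries Csf1 and Sod2 fell and Cxcl10, Mmp9 and Vcam1 rose. On day 1 Vcam1, Saa3 and Cxcl10 were higher and Ptgs2, Bcl2l1 and Csf1 lower in Bcl3-/- libraries, so 3 targets moved each way. Of these 6 calls 3 held without each library, and those of Cxcl10, Bcl2l1 and Csf1 ended without day 1 WT replicate 1 or day 1 Bcl3-/- replicate 2, and also without day 1 Bcl3-/- replicate 1 for Csf1 and Cxcl10 and day 1 WT replicate 2 or day 1 Bcl3-/- replicate 3 for Cxcl10, at adjusted p of up to 0.143, 0.0603 and 0.0836. Saa3 was low, with 62 reads in the 3 day 1 Bcl3-/- libraries together and 10 in those of day 1 WT.

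Of 9 genes whose products bind BCL3 or control its turnover, none was called between genotypes on either day. Of all genes, 10.4% were on day 3 and 15.3% on day 1. Bard1 fell over time in both genotypes, by 1.27 (SE 0.20, adjusted p by edgeR = 0.000594) in Bcl3-/- and 1.05 (SE 0.19, adjusted p by edgeR = 0.000899) in WT libraries. Cyld, which is also among the negative regulators and removes ubiquitin from BCL3, fell by 0.295 (SE 0.09, adjusted p by edgeR = 0.0243) in Bcl3-/- and 0.30 (SE 0.09, adjusted p by edgeR = 0.0183) in WT libraries. Its call in Bcl3-/- ended without day 1 Bcl3-/- replicates 2 or 3 or day 3 Bcl3-/- replicate 2, and that in WT without day 3 WT replicates 2 or 3, at adjusted p of up to 0.0999 and 0.0761.

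**Figure D5:**
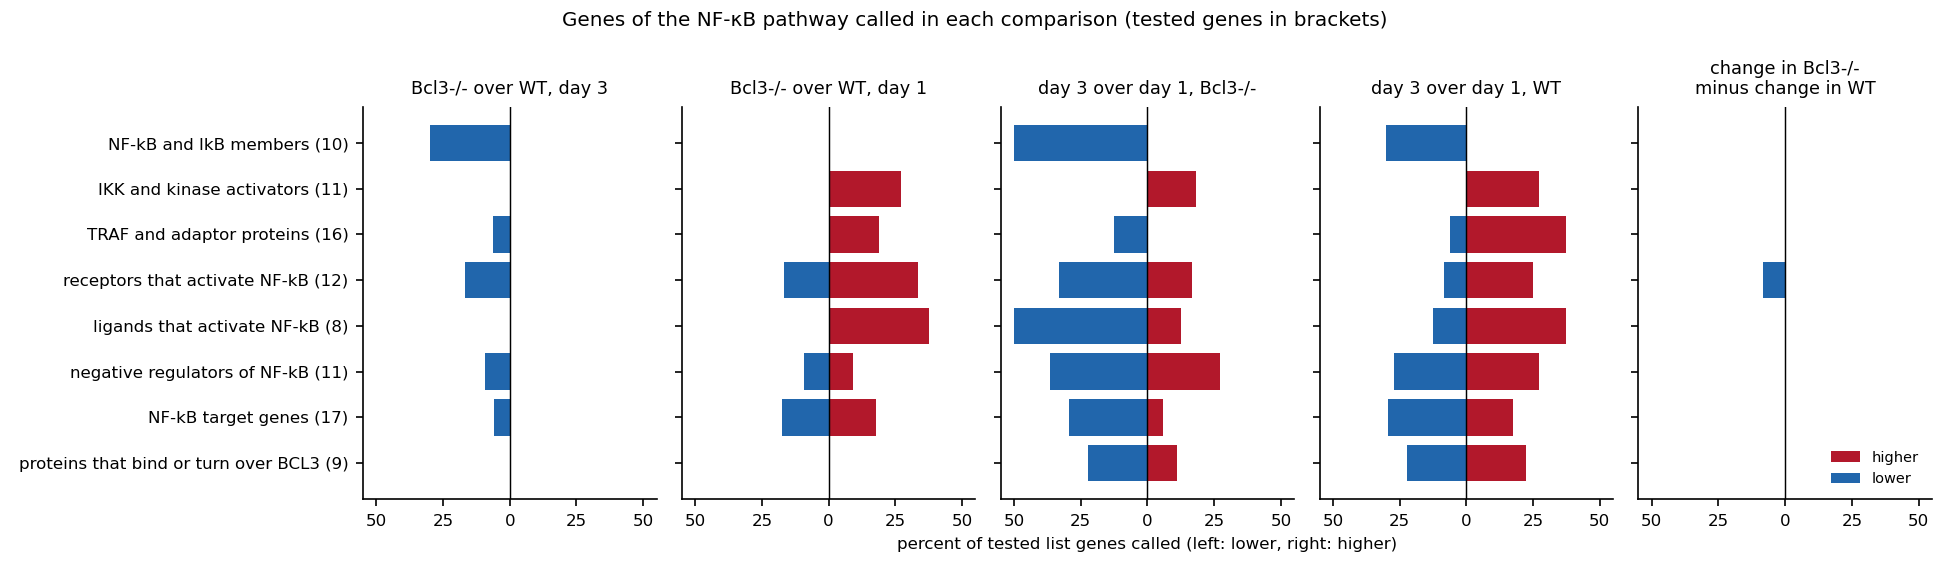
Percent of the tested genes of each list (number in brackets) called lower (left of 0) or higher (right of 0) in 4 comparisons and in the difference between the changes over time. The 10 family members have 3 lower calls on day 3 between genotypes, 5 over time in Bcl3-/- and 3 over time in WT libraries, and no higher call; on day 3 none of these lists has a gene called higher in Bcl3-/- libraries.

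The genes whose log2 CPM followed that of Bcl3 most closely over the 12 libraries, among 11990 genes compared, were Gjb5, Psat1, Mcub, Lrr1 and Ptprn, with Pearson r of 0.98, 0.978, 0.976, 0.973 and 0.971. Those that ran most opposite were Lrrn4cl, Tmem38b and Pttg1ip, at -0.98, -0.977 and -0.974. The 12 libraries are 4 groups of 3 and share the differences between groups and the cultures, and with the group means removed r was 0.711 to 0.814 for the first 5 and -0.931 to -0.74 for the last 3. For Rel the closest was Tmem123 (r = 0.975), for Nfkbiz Atg16l2 (r = 0.973), for Nfkb2 Plxna2 (r = 0.971) and for Nfkbia Rrad (r = 0.967). Among the members themselves r with Bcl3 was highest for Nfkb2 and Nfkbiz, at 0.90 each, and lowest for Nfkb1, at -0.10. Within groups it was 0.34, 0.26 and -0.67 for these 3. These values describe the libraries and carry no test.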

How the data were processed

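Per the labels and the study's methods, the authors made cDNA with the SMART-seq v4 kit from polyadenylated RNA. The count table deposited by the authors holds whole reads per gene without normalization, and the deposited FPKM values were normalized by the authors for length and depth. The submitters' processing notes name Trim Galore, TopHat2, HTSeq and Cufflinks; versions and the strand setting were not given in the sources used here. The 5 entries that name no gene held 12.3 to 14.7% of each library's counts and were left out. Of the genes with FPKM, 49318 were used, and 49 entries with several values were left out.

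Counts were filtered with filterByExpr, normalized with TMM (factors 0.951 to 1.05) and fitted in edgeR 4.0.16 (quasi-likelihood, 4 groups, R 4.3.3), with Benjamini-Hochberg adjustment over 16318 genes within each comparison. Log2 CPM used a prior count of 2. The common biological coefficient of variation was 13.5%, and depth was 20009732 to 41953891 reads in genes per library. The script was tested on simulated data. The members and lists were chosen with earlier results of these data known. Named genes were all 10 members, up to 4 called genes per list and comparison with the smallest adjusted p plus those going the other way, and the genes most like a called member. Genes that only complete a count were named beside it after their values were seen. The column names tie each day 1 library to a day 3 library by a shared suffix, taken here as the same culture. Deviations from the group means in such pairs had r of -0.16 to -0.02 for Bcl3-/- cultures and 0.24 to 0.33 for WT cultures. Pairs of equal number across genotypes had r of -0.06 to 0.21. No 2 of the 66 pairs of libraries were copies. Cultures came from separate calvariae. Alternatives were DESeq2 1.42.0, RLE and upper-quartile normalization, no filter, a minimum of 1 CPM in 6 or more libraries, only the 6 libraries compared, replicate blocks, limma 3.58.1 on log2(FPKM + 1), with and without a filter on low FPKM, and on log2(FPKM + 0.1), and leaving out each library; family shares, the ratio and, as an addition made after seeing the data, the order of the levels were recomputed from CPM per kilobase of exon.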

Additional observations from a re-analysis of the deposited data

Results flagged for a closer look

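Tlr3, a receptor of the pathway lists, was the only gene of these lists or of the 10 members whose change over time differed between the genotypes by the test of the difference itself. Of all 16318 tested genes, that test called 183, or 1.12%. It averaged 27.7 ± 3.29 CPM in day 3 Bcl3-/- and 36.0 ± 2.61 CPM in day 3 WT libraries, against 21.2 ± 4.14 CPM in day 1 Bcl3-/- and 10.5 ± 2.94 CPM in day 1 WT libraries (SD, n = 3 each). The change in Bcl3-/- minus that in WT libraries was -1.385 on the log2 scale (SE 0.259, edgeR adjusted p = 0.0335). The call ended in 2 of 10 other settings, both on FPKM, and without 9 of the 12 libraries, at adjusted p of up to 0.12.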

How the results depend on the processing

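With limma on FPKM, using a pseudocount of 1, a pseudocount of 0.1, and 1 after a filter on low FPKM, the change of Bcl3 over time in WT was -0.375, -0.407 and -0.375 and was not called. Between genotypes on day 3 it was -0.581 and -0.653 on the first 2 scales, not called, and called on the third. The members called on day 3 between genotypes were 3 in the main test, 1 on log2(FPKM + 1), 1 on log2(FPKM + 0.1) and 5 with DESeq2, and those over time in WT were 1 on log2(FPKM + 1). In the same order, the day 3 comparison called 1693 of 16318, 1030 of 34735, 978 of 34735 and 2341 of 16318 genes. Over time in WT, log2(FPKM + 1) called 5257 of 34735 genes. The test of the difference between the changes called 1 member with no filter on low counts, with DESeq2 and with the replicate block by culture, against 0 otherwise. Of all genes these 3 settings called 552 of 30749, 462 of 16318 and 292 of 16318. With the replicate block by culture the members called were 2 between genotypes on day 3, 0 on day 1, 5 over time in Bcl3-/- and 3 in WT. Beside them 1821, 2606, 5733 and 6564 of all 16318 genes were called. The culture block was fitted with limma for the genotype comparisons and with edgeR for the changes over time and their difference. With the block by number the members called were 2, 0, 6 and 2, beside 1774, 2465, 5307 and 6104 of all genes.

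Leaving out 1 library at a time, the change of Bcl3 over time in WT ranged over -0.48 to -0.32 and its day 1 difference by genotype over -0.0898 to 0.0677. The members called over time in WT were 0 to 5, with 0 when replicate 2 of day 1 WT or replicate 3 of day 3 WT was left out. In those fits 4984 and 4629 of all genes were called, against 6285 in the main test. Calls of Rel by genotype on day 3, and of Bcl3, Nfkbiz, Nfkb2, Nfkbia and Rel over time in Bcl3-/-, held in all 11 other settings and without each of the 12 libraries.

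Signs changed 60 times, over 15 log2 fold changes near 0 that were never called. On the 3 FPKM scales in the order above, Nfkb1 was -0.00269, -0.00275 and -0.00269 by genotype on day 1 and -0.0186, -0.0198 and -0.0186 on day 3, Rela was -0.027, -0.0277 and -0.027 on day 3, and Rel over time in WT was -0.0293, -0.0341 and -0.0293. With no filter, Rela on day 3 was -0.0184, and Nfkbia and Nfkbib on day 1 were 0.000818 and 0.00498. With only the 6 libraries compared these last 2 were 0.000774 and 0.00479, and with the block by number Nfkbia was 0.00145. Rela over time in Bcl3-/- was 0.00282 with RLE, 0.0148 with upper-quartile scaling, 0.0162 with the minimum of 1 CPM and 0.00245 with DESeq2, and the difference between the changes of Nfkb1 was 0.000747 with RLE. Without single libraries the day 1 differences by genotype ranged over -0.231 to 0.00581 for Rel, -0.15 to 0.137 for Nfkbia, -0.06 to 0.023 for Nfkbib and -0.0319 to 0.183 for Nfkbie. Those on day 3 ranged over -0.0333 to 0.106 for Nfkb1, -0.0463 to 0.0554 for Rela and -0.164 to 0.0632 for Nfkbib. Changes over time ranged over -0.0835 to 0.00308 for Nfkb1 and -0.0522 to 0.0336 for Rela in Bcl3-/-, and over -0.093 to 0.0463 for Nfkb1 and -0.0715 to 0.166 for Rel in WT. The differences between the changes ranged over -0.0844 to 0.055 for Nfkb1 and -0.154 to 0.0733 for Nfkbib. The causes were not tested. With 3 libraries a group, an exact test cannot go below 0.1, and the counts show RNA of mixed cells, not protein or its place in the cell.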
